A study of Mus musculus with 12 samples.

Results

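The expression of 37 classic antiviral genes induced by type I interferon was described in tumor cells recovered from WT and Rac1 A159V MC38 tumors. The members were chosen by name and function, as interferon-stimulated genes outside the guanylate-binding protein, immunity-related GTPase and MHC families, and each was matched to the count table through its Ensembl identifier and its symbol in GENCODE M21. All 37 were found among the 33219 features of the table, and all 37 had enough counts to be tested, out of 14340 genes tested. MC38 is a mouse colon cancer line, and the A159V cells carry the substitution at the endogenous Rac1 gene, introduced by gene editing. The 12 samples are 4 groups of 3 mice, named A159V IgG, A159V anti-PD1, WT IgG and WT anti-PD1, where IgG is the isotype control antibody and anti-PD1 blocks the T cell checkpoint receptor PD1. Every C57BL/6 host, bought at 6 to 8 weeks of age, carried subcutaneous MC38 cells, was dosed every 3 days from day 3 and was harvested on day 13, and tumor cells were then enriched with a magnetic kit. The A159V data came from 1 edited clone unless the study specified otherwise, so effects of the substitution and of the clone cannot be told apart.

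Type I interferons are secreted proteins that signal through the receptor subunits IFNAR1 and IFNAR2 and the kinases JAK1 and TYK2. STAT2 and IRF9 then act in a transcription factor complex that binds a promoter sequence called the interferon-stimulated response element (ISRE) and turns on a broad set of antiviral genes. Their products sense foreign RNA and DNA, block translation, degrade RNA or hold virus particles at the cell membrane, and in tumors such genes are read as a sign of interferon signaling.

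Each library held between 14053582 and 21949942 counts, and the members together held between 0.592% and 0.783% of the counts. In these libraries 3 counts, taken as the smallest detectable amount, were worth between 0.137 and 0.213 CPM, which are counts scaled to the library size, a limit that covers counting error only. Markers of other cell types were measured beside the members. The summed level of 14 leukocyte markers was 9.03 to 11.5 CPM in A159V IgG, 8.38 to 19.0 CPM in WT IgG and 9.68 to 12.5 CPM in A159V anti-PD1, and it reached 35.1 to 57.5 CPM in the WT anti-PD1 samples, which lay above the other 3 groups without overlap. Of the 10 leukocyte markers that could be tested, 5 were lower in A159V than in WT under IgG (Ptprc, Nkg7, Tyrobp, Fcer1g and Coro1a) and 9 under anti-PD1, all but Lyz2. Lyz2 was the largest part of the sum in A159V IgG, with a mean of 6.08 CPM against 3.95 CPM in WT IgG. It was the only one of the 10 on the higher side under IgG (log2 fold change 0.62, not called). The mean of Ptprc was 0.103 CPM in A159V IgG and 1.31 CPM in WT IgG, so the overlap of the sums does not hold for each marker. Of 4 markers of plasmacytoid dendritic cells, Siglech did not exceed 0.201 CPM in any sample, Ccr9 did not exceed 0.278 CPM, and Tcf4 was called in no comparison. Spib, a factor of these cells and of B cells, was at 0.874 to 8.74 CPM in WT and at most 0.167 CPM in A159V, and was lower in A159V under IgG (log2 fold change −5.35, adjusted p = 0.00201) and under anti-PD1 (−5.47, adjusted p = 0.00224). Of 4 fibroblast markers, Dpt (−3.94) and Lum (−2.44) were lower in A159V under IgG and Lum (−3.49) under anti-PD1. Pi16 (−2.70, adjusted p = 0.0543 by edgeR) and Pdgfra, the most abundant (0.62, adjusted p = 0.113), were not called under IgG. The fibroblast sums overlapped under IgG, at 49.8 to 81.0 CPM in WT and 65.5 to 88.8 CPM in A159V. Under anti-PD1 they were 84.3 to 129 CPM in WT and 62.7 to 74.3 CPM in A159V. Dpt at 15.3 CPM and Pi16 at 24.7 CPM were highest in WT IgG replicate 1. The endothelial markers Pecam1 (−1.08) and Cdh5 (−0.74) were lower in A159V under anti-PD1. The part of these other cells in the member results was not tested beyond a leukocyte score in the model, given with the comparisons of genotype and of anti-PD1 in WT. The labels call the line an adenocarcinoma, but 8 epithelial markers of colon carcinoma summed to only 1.53 to 5.90 CPM, and Epcam, the epithelial adhesion molecule, reached 0.109 CPM at most. In bulk samples, fewer cells of a type and less RNA per cell cannot be told apart. 1 WT IgG sample and 1 A159V IgG sample stood apart from their groups, WT IgG replicate 1 and A159V IgG replicate 5. Member results that rest on them are given with and without them. WT IgG replicate 4 also departed in the members, as the lowest of its group for 23 of the 37, against 14 for replicate 1.

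The members were expressed at clear levels in all samples. Per kilobase of exon, the mean of the 4 groups was above the median of the tested genes (5.73 RPKM) for all 37 members and above their 75th percentile for 31, with a member median of 35.3 RPKM. Bst2, which encodes tetherin, the protein that holds budding virus at the cell surface, had the highest level at 626 RPKM. Isg15, the ubiquitin-like modifier, followed at 374 RPKM, then Lgals3bp, a secreted glycoprotein that binds galectins, at 178 RPKM and Rsad2, the gene of viperin, at 136 RPKM. The lowest levels were those of Mx2 at 7.60 RPKM, the RNA receptor gene Tlr3 at 9.42 RPKM and the ISG15 ligase gene Herc6 at 10.1 RPKM.

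The promoters of 5 members are shown because they span the patterns found below, with Isg15 and Bst2 as the most abundant members, Ifit3 and Ifit3b among those lower in A159V and Rsad2 as the gene that was higher. Each is the 200 bases before the RefSeq start in GRCm38.p6, the assembly of mm10, written 5′ to 3′ on the strand of the gene. Capitals mark the ISRE core, which is GAAA, any 2 bases and again GAAA, or its reverse complement, TTTC, any 2 bases and again TTTC, and neighboring matches that overlap form 1 run of capitals. The intervals are chr4:156200819-156201018 on the minus strand for Isg15, chr8:71537473-71537672 on the minus strand for Bst2, chr19:34583329-34583528 on the plus strand for Ifit3, chr19:34607757-34607956 on the plus strand for Ifit3b and chr12:26456453-26456652 on the minus strand for Rsad2.
Isg15: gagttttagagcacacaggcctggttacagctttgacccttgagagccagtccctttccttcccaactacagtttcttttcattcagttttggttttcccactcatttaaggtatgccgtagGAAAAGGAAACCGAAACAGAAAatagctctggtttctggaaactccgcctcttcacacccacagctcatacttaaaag
Bst2: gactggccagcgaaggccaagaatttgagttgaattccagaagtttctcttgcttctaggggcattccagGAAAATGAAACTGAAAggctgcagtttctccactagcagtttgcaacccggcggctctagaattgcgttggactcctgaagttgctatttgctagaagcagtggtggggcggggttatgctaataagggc
Ifit3: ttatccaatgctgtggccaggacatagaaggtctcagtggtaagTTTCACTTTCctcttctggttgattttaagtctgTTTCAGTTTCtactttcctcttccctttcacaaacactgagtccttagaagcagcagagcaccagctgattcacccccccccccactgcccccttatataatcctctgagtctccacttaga
Ifit3b: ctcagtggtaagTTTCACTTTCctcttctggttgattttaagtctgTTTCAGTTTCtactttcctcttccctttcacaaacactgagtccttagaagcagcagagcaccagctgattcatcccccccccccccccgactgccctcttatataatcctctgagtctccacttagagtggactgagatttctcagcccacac
Rsad2: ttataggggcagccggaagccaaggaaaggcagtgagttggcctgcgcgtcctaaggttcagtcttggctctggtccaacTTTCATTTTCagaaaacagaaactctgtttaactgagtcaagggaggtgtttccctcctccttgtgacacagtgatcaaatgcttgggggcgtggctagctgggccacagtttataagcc
Isg15 carried 3 overlapping matches between bases −78 and −66 before the start, counted at the first base of each match, and Bst2 carried matches at −130 and −124. Ifit3 and Ifit3b, which lie side by side on chromosome 19, each carried 2 matches on the opposite strand, and their stretches were identical at 166 of 174 aligned columns (95.4%, with 6 columns of gaps). Rsad2 carried 1 match at −120. A RefSeq promoter from 250 bases before to 50 bases after the start was found for 26 of the 37 members, and 12 of these (46.2%) held the core on either strand, against 3.44% of all 32851 promoters in the table. The core TTCNNNGAA of the gamma-activated site, a second interferon-responsive element, reads the same on both strands and was in 5 of the 26 (19.2%) against 8.3% of all promoters. Of the 12 members with an ISRE core, 1 was higher and 2 were lower in A159V IgG than in WT IgG by the test described next. Of all tested genes, 15.6% were higher and 12.4% were lower. The median difference of the 12 members on the log2 scale was −0.09.

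**Figure D1:**
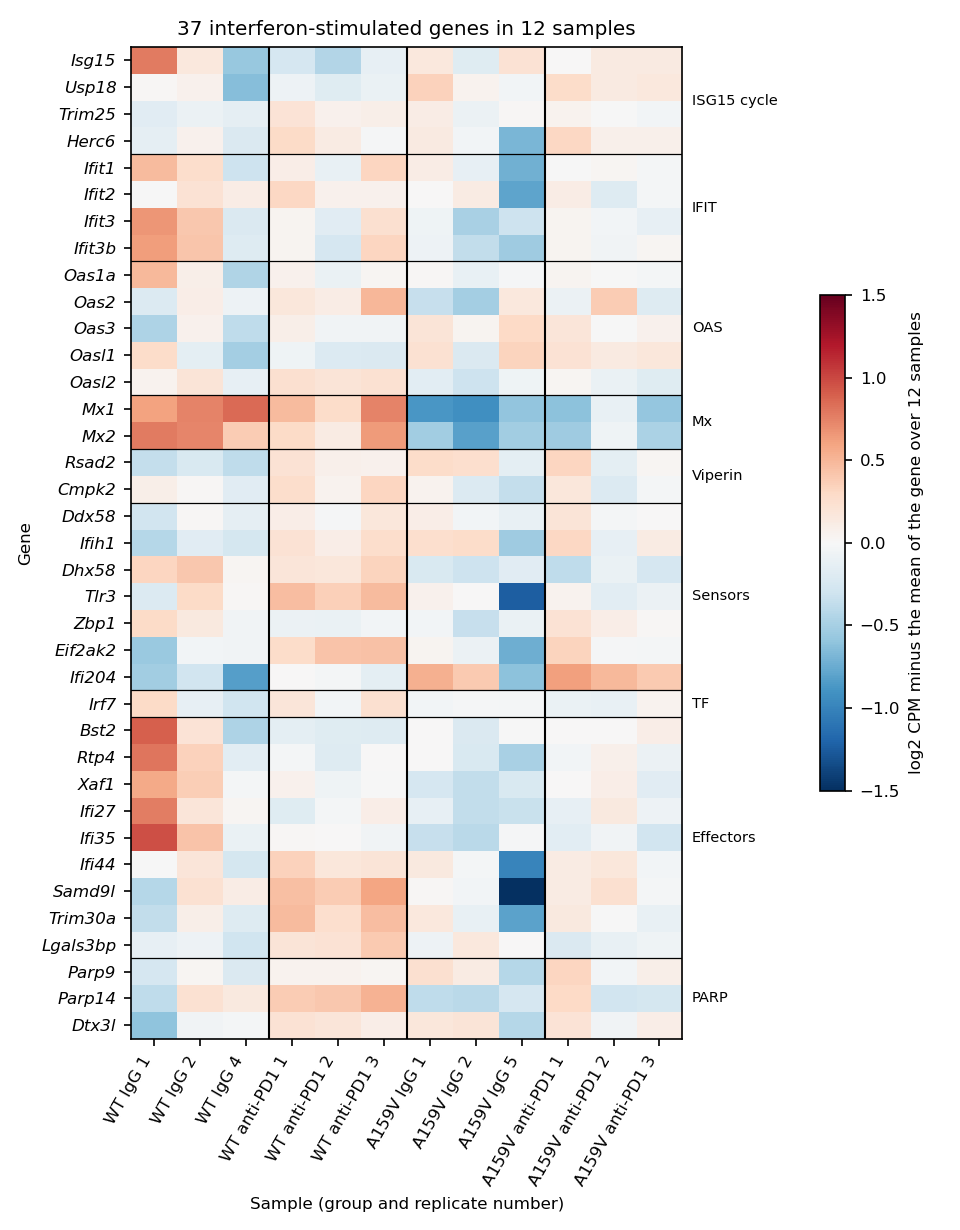
Expression of the 37 members (rows, grouped by role) in the 12 samples (columns), as log2 CPM minus the mean of the gene over all samples. Mx1, Mx2 and Dhx58 are lower in the 6 A159V samples than in the 6 WT samples, WT IgG replicate 1 is high for short genes such as Isg15, Bst2 and Ifi35, and A159V IgG replicate 5 is low for Samd9l and Tlr3.

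The first comparison asked how the genotypes differed in the absence of checkpoint blockade. Between A159V IgG and WT IgG, 11 of the 37 members differed, 2 higher and 9 lower in A159V. Here and below, a gene passed the test where edgeR's quasi-likelihood fit gave it an adjusted p under 0.05 and its log2 fold change was above 0.3 in size. The share of members that passed, 29.7%, was close to the 28.0% of all tested genes, while by direction 24.3% of members were lower against 12.4% of all genes, and 5.41% were higher against 15.6%. The median log2 fold change of the members was −0.15, with a range from −1.52 to 0.71, against 0.02 over all tested genes. The lower members were the Mx GTPase genes Mx1 and Mx2, the RNA-binding protein genes Ifit3 and Ifit3b, the sensor gene Dhx58 and the effector genes Rtp4, Xaf1, Ifi27 and Ifi35. The higher members were Rsad2 and the DNA sensor gene Ifi204. The 3 values of A159V IgG did not overlap those of WT IgG for 7 members (18.9%), against 35.8% of all genes. Without WT IgG replicate 1 and A159V IgG replicate 5, 12 members passed, 3 higher and 9 lower, 8 of them among the 11 named here. The main fit took its spread from all groups. In a fit of only the IgG groups, which spread more than the anti-PD1 groups, Mx1 and Mx2 alone passed.

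Mx1 and Mx2 encode dynamin-like GTPases that block virus replication, and in most inbred mouse strains, C57BL/6 included, Mx1 carries a deletion and makes no functional protein. They are neighbors on chromosome 16 (mm10, 97447035 to 97462907 for Mx1 and 97535308 to 97560900 for Mx2). Mx1 was at 58.6, 64.8 and 70.0 CPM in WT IgG, at 53.8, 46.7 and 64.9 CPM in WT anti-PD1, at 21.2, 20.4 and 25.7 CPM in A159V IgG and at 25.3, 35.9 and 25.9 CPM in A159V anti-PD1. All 6 A159V samples were lower than all 6 WT samples. Its log2 fold change between A159V IgG and WT IgG was −1.52 (SE 0.17, adjusted p = 0.000129), the largest among the members in size, and under anti-PD1 it was −0.93 (SE 0.17, adjusted p = 0.00256). For Mx2, the values were 43.9, 42.6 and 33.3 CPM in WT IgG, 31.2, 28.0 and 39.8 CPM in WT anti-PD1, 17.9, 14.6 and 17.8 CPM in A159V IgG and 17.7, 24.5 and 18.4 CPM in A159V anti-PD1. The A159V samples again lay below every WT sample. The log2 fold changes of Mx2 were −1.25 (SE 0.18, adjusted p = 0.000568) under IgG and −0.71 (SE 0.18, adjusted p = 0.0149) under anti-PD1. Without WT IgG replicate 1 and A159V IgG replicate 5, the change under IgG was −1.79 for Mx1 and −1.32 for Mx2, and both passed the test.

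The RIG-I-like receptors detect viral RNA in the cytosol, where RIG-I (Ddx58) and MDA5 (Ifih1) signal to the adaptor MAVS and LGP2 (Dhx58), which lacks the signaling domains, tunes them. Dhx58 (chromosome 11, 100694884 to 100704271) was at 79.2, 83.4 and 64.5 CPM in WT IgG, at 71.5, 71.2 and 79.8 CPM in WT anti-PD1, at 54.1, 51.1 and 56.4 CPM in A159V IgG and at 48.4, 58.9 and 53.1 CPM in A159V anti-PD1. The 2 genotypes did not overlap under either antibody, and the log2 fold changes were nearly equal, −0.49 (SE 0.13, adjusted p = 0.0149) under IgG and −0.47 (SE 0.13, adjusted p = 0.0214) under anti-PD1. Mx1, Mx2 and Dhx58 were the 3 members that were lower in all 6 A159V samples than in all 6 WT samples, which held for 6.82% of all genes, and no member was higher in all 6, which held for 10.3% of all genes. Ddx58 was at 167, 207 and 186 CPM in WT IgG, 219, 202 and 228 CPM in WT anti-PD1, 219, 199 and 189 CPM in A159V IgG and 233, 200.4 and 205 CPM in A159V anti-PD1. The groups overlapped, and its log2 fold changes between the genotypes were 0.12 (SE 0.12) under IgG and −0.02 (SE 0.12) under anti-PD1, neither past the test. Ifih1 was at 70.6, 84.5 and 79.5 CPM in WT IgG, 111, 102 and 114 CPM in WT anti-PD1, 113, 115 and 65.7 CPM in A159V IgG and 118, 87.5 and 104 CPM in A159V anti-PD1. A159V IgG replicate 5 was the lowest of all samples and the other two A159V IgG samples were above every WT IgG sample. The log2 fold change of Ifih1 under IgG was 0.32 (SE 0.19, adjusted p = 0.222), which did not pass with all samples but passed without that replicate.

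The IFIT proteins bind foreign RNA ends and hold back its translation. Ifit3 (chromosome 19, 34583531 to 34588731) was at 196, 164 and 107 CPM in WT IgG, 127, 110.4 and 146 CPM in WT anti-PD1, 118, 88.6 and 99.96 CPM in A159V IgG and 128, 120.4 and 114 CPM in A159V anti-PD1. Its neighbor Ifit3b was at 93.4, 80.6 and 52.8 CPM, then 62.2, 50.8 and 75.3 CPM, then 57.5, 46.6 and 41.8 CPM and then 61.9, 58.0 and 61.5 CPM in the same order of groups. In both genes 2 WT IgG samples lay above all A159V IgG samples and WT IgG replicate 4 fell among them. Under IgG the log2 fold changes were −0.61 (SE 0.20, adjusted p = 0.0361) for Ifit3 and −0.64 (SE 0.20, adjusted p = 0.0345) for Ifit3b, and under anti-PD1 they were −0.08 and −0.05. Both calls were lost without WT IgG replicate 1, with log2 fold changes of −0.47 and −0.52. Of all windows of 100 bases, the read length, 31.7% in Ifit3 transcripts and 27.4% in Ifit3b transcripts were shared by the pair, so the division of reads between them is uncertain. Ifit1 and Ifit2 did not pass, at −0.38 (SE 0.22) and −0.28 (SE 0.20).

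Of the 9 members grouped as membrane proteins, adaptors and other effectors, 4 were lower in A159V IgG, a comparison in which 12.4% of all genes were lower. Xaf1, which encodes a partner of the apoptosis inhibitor XIAP, was at 165, 144 and 109.7 CPM in WT IgG, 117, 106 and 111 CPM in WT anti-PD1, 94.1, 86.3 and 95.3 CPM in A159V IgG and 112, 120.0 and 99.5 CPM in A159V anti-PD1. Ifi27, whose product is a small membrane protein of mitochondria, was at 208, 139.6 and 125 CPM in WT IgG, 109, 121 and 132 CPM in WT anti-PD1, 112, 94.8 and 97.6 CPM in A159V IgG and 113, 136 and 117 CPM in A159V anti-PD1. In these 2 genes the A159V IgG samples lay below all WT IgG samples, whereas the genotypes overlapped under anti-PD1. The log2 fold changes under IgG were −0.61 (SE 0.15, adjusted p = 0.00936) for Xaf1 and −0.63 (SE 0.18, adjusted p = 0.0186) for Ifi27.

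Ifi35, which encodes a leucine zipper protein that pairs with NMI, was at 157, 108 and 75.6 CPM in WT IgG, 82.0, 81.4 and 77.9 CPM in WT anti-PD1, 63.6, 61.1 and 79.6 CPM in A159V IgG and 72.4, 77.6 and 65.98 CPM in A159V anti-PD1. Rtp4, the gene of a receptor transporter protein that restricts some RNA viruses, was at 128, 93.5 and 65.9 CPM in WT IgG, 72.0, 64.2 and 73.8 CPM in WT anti-PD1, 74.0, 63.0 and 52.6 CPM in A159V IgG and 71.4, 77.6 and 69.0 CPM in A159V anti-PD1. WT IgG replicate 1 was the highest of all 12 samples for both, and the IgG groups overlapped. Under IgG the log2 fold changes were −0.74 (SE 0.21, adjusted p = 0.0202) for Ifi35 and −0.60 (SE 0.20, adjusted p = 0.0419) for Rtp4. Without WT IgG replicate 1 they were −0.49 and −0.40 and neither passed. Rtp4 also shared 9.28% of its windows of 100 bases with another annotated gene, Gm45338. The membrane protein gene Bst2, at 1022, 632 and 399 CPM in WT IgG and 551, 475 and 547 CPM in A159V IgG, spread more in WT IgG than any other member (coefficient of variation 45.9%), and its log2 fold change of −0.38 (SE 0.24, adjusted p = 0.254) did not pass.

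**Figure D2:**
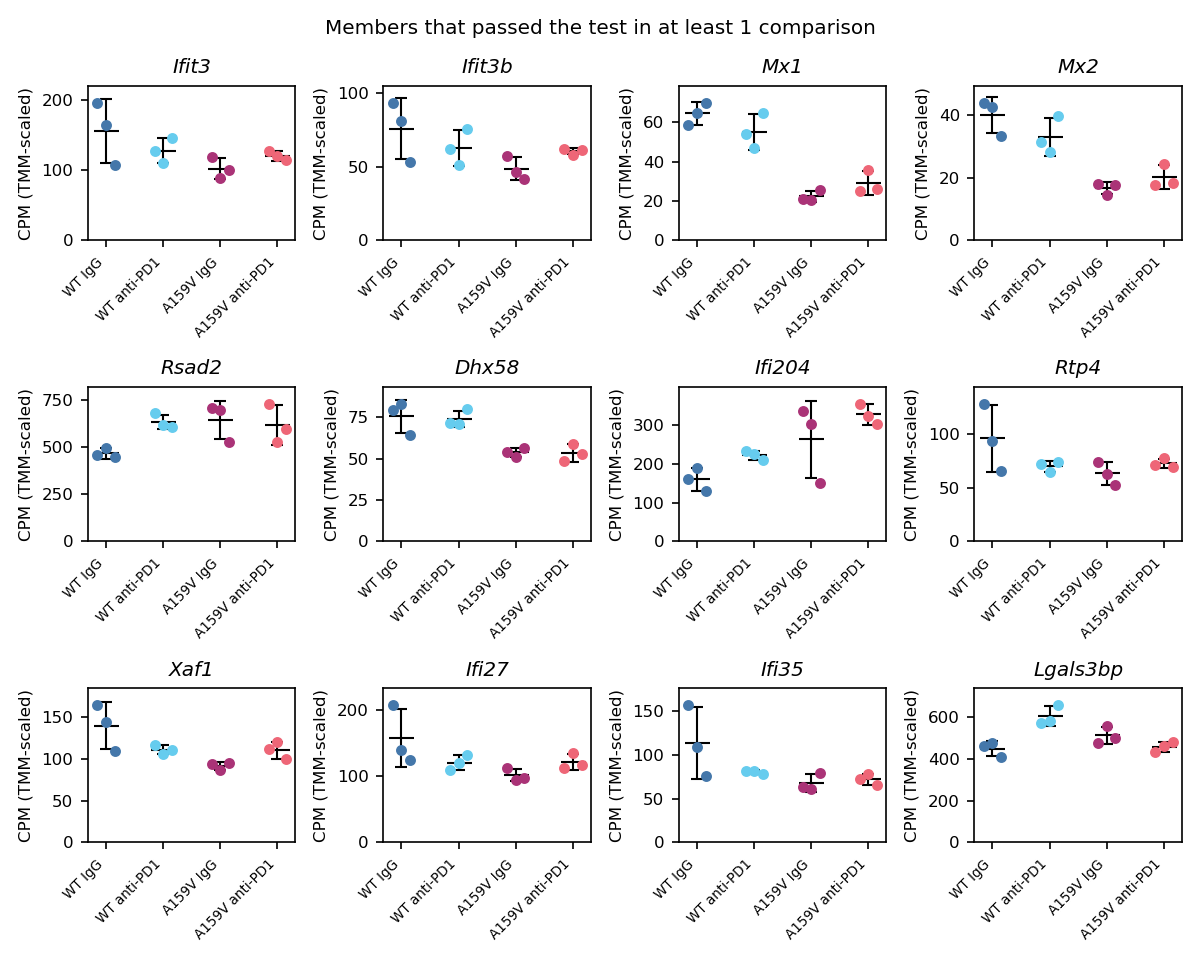
Expression in CPM (TMM-scaled) of the 12 members that passed the test in at least 1 comparison, with 1 point per mouse and the mean ± SD of each group in black. Mx1, Mx2 and Dhx58 separate by genotype under both antibodies, while for Ifit3, Ifit3b, Rtp4, Xaf1, Ifi27 and Ifi35 the WT IgG group is high and wide and the other 3 groups lie close together.

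The 2 members that were higher in A159V IgG had different roles. Rsad2, the gene of viperin, an enzyme that makes a nucleotide that stops viral RNA synthesis, was at 455, 495 and 445 CPM in WT IgG, 677, 615 and 607 CPM in WT anti-PD1, 706, 695 and 527 CPM in A159V IgG and 729, 526 and 592 CPM in A159V anti-PD1. The WT IgG samples were the lowest of all 12, and their log2 difference from A159V IgG was 0.47 (SE 0.15, adjusted p = 0.0398). Cmpk2, the neighbor of Rsad2 on chromosome 12 and the gene of a mitochondrial nucleotide kinase, ranged from 75.3 to 121 CPM over all samples, with a log2 fold change of −0.14 (SE 0.15) under IgG. Ifi204, of the HIN-200 family of DNA-binding proteins, was at 162, 190.5 and 130.3 CPM in WT IgG, 233, 226 and 210.2 CPM in WT anti-PD1, 337, 304 and 151 CPM in A159V IgG and 357, 325 and 304 CPM in A159V anti-PD1. A159V IgG replicate 5 fell within the WT IgG range, while the other 5 A159V samples were above every WT sample. The log2 fold change of Ifi204 was 0.71 (SE 0.24, adjusted p = 0.0411) under IgG with that sample and 0.92 without it, and 0.56 (SE 0.24, adjusted p = 0.11) under anti-PD1. With other size factors (RLE), neither Rsad2 (0.39) nor Ifi204 (0.63) passed under IgG, nor did either pass without WT IgG replicate 1 (0.38 and 0.65). Ifi204 shared 10.7% of its windows of 100 bases with related genes.

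The remaining groups of members did not pass under IgG. Isg15 was at 473, 305 and 185 CPM in WT IgG, 229.9, 202 and 251 CPM in WT anti-PD1, 306, 242 and 318 CPM in A159V IgG and 274, 301 and 300.1 CPM in A159V anti-PD1. WT IgG held both the highest and the lowest sample of all. The log2 fold change between the genotypes under IgG was −0.15 (SE 0.25), so a difference could not be detected there at this spread. Under anti-PD1 the genotypes did not overlap, as was the case for 56.1% of all genes, and the log2 fold change was 0.36 (SE 0.25). It did not pass the test, whose SE came from 1 fit of all 4 groups. The other genes of the ISG15 cycle, Usp18, which removes the modifier, and the ligase genes Trim25 and Herc6, had log2 fold changes from −0.06 to 0.28 under IgG. Irf7, the transcription factor that amplifies interferon production, was at 92.4, 69.2 and 61.1 CPM in WT IgG, 85.4, 73.3 and 88.9 CPM in WT anti-PD1, 73.6, 74.6 and 73.8 CPM in A159V IgG and 70.3, 69.9 and 78.4 CPM in A159V anti-PD1. The 4 groups overlapped, and its log2 fold changes between the genotypes were −0.01 (SE 0.15) and −0.18 (SE 0.15). The 5 members of the oligoadenylate synthetase family, whose products activate RNase L or resemble those that do, lay between −0.22 and 0.42, with Oas3 at an adjusted p of 0.0501. Oas1a shared 40.9% of its windows of 100 bases with Oas1g, so its counts are uncertain. Parp9, Dtx3l and Parp14, of the ADP-ribosylation machinery, lay between −0.36 and 0.21. Among the sensors, Zbp1, whose product recognizes Z-form nucleic acids and can trigger cell death, was at 391, 357 and 309 CPM in WT IgG and 312, 252 and 301 CPM in A159V IgG, which overlapped, and at 302, 301 and 312 CPM in WT anti-PD1 and 375, 345 and 325 CPM in A159V anti-PD1, which did not. The genotype order of Zbp1 thus differed between the antibodies, with log2 fold changes of −0.29 (SE 0.13, adjusted p = 0.115) and 0.19 (SE 0.13, adjusted p = 0.318) that did not pass. Trim30a, a regulator of innate signaling, and Ifi44, a gene of a cytosolic protein, ranged from 51.1 to 124 CPM and from 78.5 to 198 CPM, with A159V IgG replicate 5 the lowest sample in both.

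The same question was then asked under anti-PD1, between other mice, although the 12 samples of all 4 groups entered the same fit. When the genotypes were compared under anti-PD1, 4 of the 37 members differed (10.8%, against 21.4% of all genes), all of them lower, against 10.2% of all genes that were lower and 11.2% that were higher. The lower members were Mx1, Mx2, Dhx58 and Lgals3bp. In a fit of only the anti-PD1 groups, 12 members passed, and the share of all genes in that fit is not given here. The counts under IgG and under anti-PD1 thus depended on which groups gave the spread. The leukocyte markers differed as well, with a sum of 9.68 to 12.5 CPM in A159V anti-PD1 and of 35.1 to 57.5 CPM in the WT samples. With a leukocyte marker score in the model none of the 4 passed, at log2 fold changes of −1.33 for Mx1, −1.49 for Mx2, −0.99 for Dhx58 and −0.66 for Lgals3bp, and since the score separates these groups, genotype and leukocyte level cannot be told apart here. Under IgG the score, a mean of log2 values, also separated the genotypes, at −0.998 or above in WT and at −1.21 or below in A159V, although the summed levels overlapped. Mx1 and Mx2 passed under IgG with the score in the model (log2 fold changes −1.66 and −1.52, adjusted p = 0.0151 and 0.0241), and the other 9 members did not. Since the score separates the genotypes under IgG too, genotype and leukocyte level cannot be told apart for any of these members, Mx1 and Mx2 included. Lgals3bp was at 573, 583 and 662 CPM in WT anti-PD1 and 434, 464 and 481 CPM in A159V anti-PD1, without overlap, and at 463, 477 and 409 CPM in WT IgG and 477, 559.8 and 503 CPM in A159V IgG. Its log2 fold change was −0.40 (SE 0.12, adjusted p = 0.0376) under anti-PD1 and 0.19 (SE 0.12, adjusted p = 0.269) under IgG, and without WT anti-PD1 replicate 3 the first was −0.33 and did not pass. Without that sample Mx2 (−0.55) and Dhx58 (−0.41) did not pass under anti-PD1 either, and Mx1 did (−0.79). The median log2 fold change of the members was −0.08, against 0.06 over all genes, and the groups did not overlap for 18 members (48.6%), against 56.1% of all genes.

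Side by side, 24 of the 37 members had the same sign of difference between the genotypes under both antibodies, and 25 differed more in size under IgG. The log2 fold changes of the 2 comparisons, which share no samples but come from the same fit and the same clone, had a Pearson's r of 0.59 across the 37 members, a value given as a description, since genes are not independent replicates. The 6 members that were lower under IgG but did not pass under anti-PD1 had values under anti-PD1 from −0.16 for Ifi35 to 0.05 for Rtp4. Whether the genotype difference itself depended on the antibody was tested with the interaction, which no member passed, against 0.00697% of all genes. At an unadjusted p under 0.05 the interaction was reached by 7 members, Mx1, Rsad2, Zbp1, Rtp4, Xaf1, Ifi27 and Lgals3bp (18.9%, against 17.6% of all genes), and DESeq2 called 1, Lgals3bp, with a lower response in A159V.

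**Figure D3:**
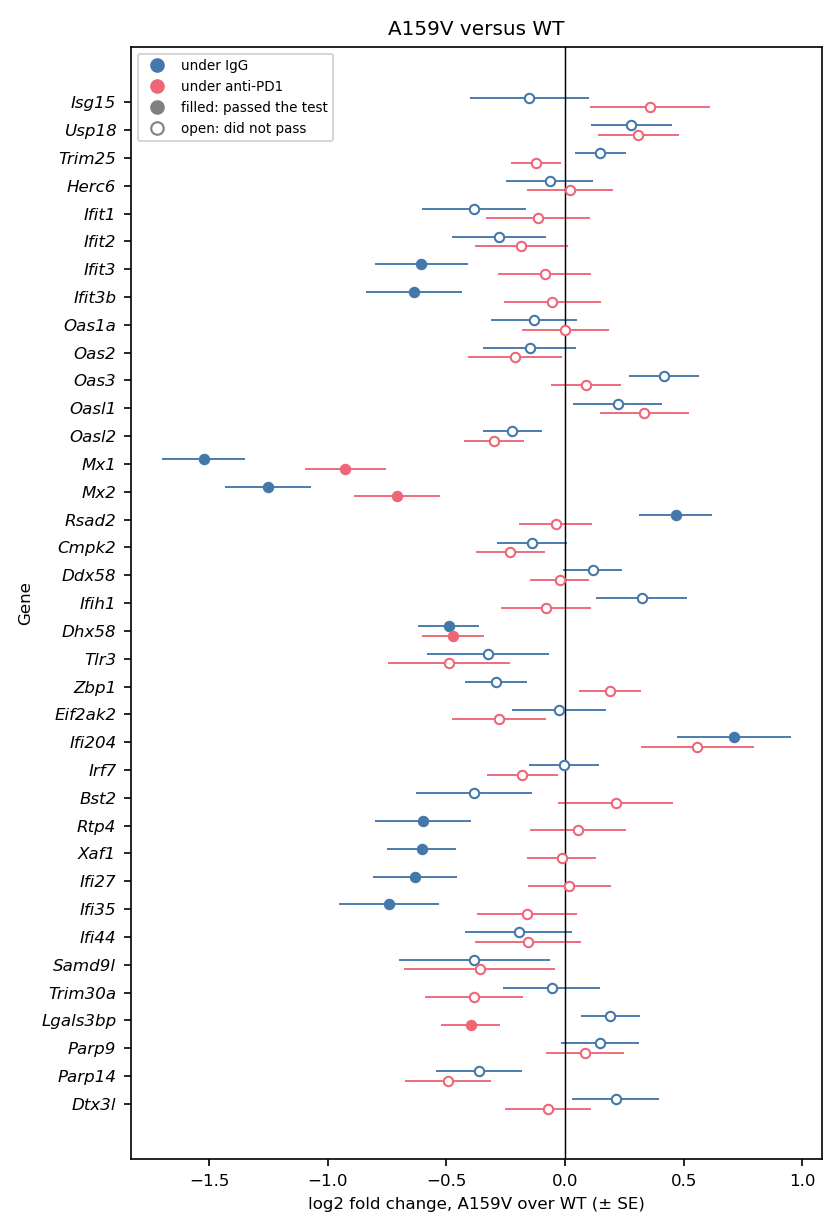
Log2 fold change (± SE) of each member between A159V and WT under IgG (blue) and under anti-PD1 (red), with filled points where the gene passed the test. Mx1, Mx2 and Dhx58 lie left of 0 and are filled for both antibodies, and no other member is filled for both.

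The response to anti-PD1 was compared within each genotype. In WT, none of the 37 members differed between anti-PD1 and IgG by edgeR, against 0.495% of all genes that were higher and 0.132% that were lower, and DESeq2 called 2, Rsad2 and Lgals3bp, both higher. At an unadjusted p under 0.05 there were 11 members (29.7%, against 27.5% of all genes). Among these, Trim25, Rsad2, Ifih1, Eif2ak2, Trim30a, Lgals3bp and Parp14 were higher and Rtp4, Xaf1, Ifi27 and Ifi35 were lower with anti-PD1. Eif2ak2, the gene of the RNA-activated kinase PKR, had the highest log2 fold change at 0.58 (SE 0.20, adjusted p = 0.105), Rsad2 had 0.44 (SE 0.15, adjusted p = 0.107) and Lgals3bp 0.43 (SE 0.12, adjusted p = 0.0815). The values of Eif2ak2 were 119.5, 132 and 133 CPM with anti-PD1 and 66.8, 96.0 and 95.0 CPM with IgG, without overlap. Ifi35 had the lowest at −0.50 (SE 0.21, adjusted p = 0.15), followed by Isg15 and Bst2 at −0.49 each. The groups did not overlap for 14 members (37.8%), against 34.6% of all genes, and the median was 0.17, against 0.01 over all genes. The summed leukocyte markers were at 35.1 to 57.5 CPM in WT anti-PD1 and 8.38 to 19.0 CPM in WT IgG. With the leukocyte score in the model no member passed, and the median was 0.59, against 0.04 over all genes. Since the score separates these groups, treatment and leukocyte level cannot be told apart.

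The sign of the WT response went with the length of the gene. Across the 37 members the log2 fold change had a Spearman's rho of 0.70 with the exon length, a description only, since all values share the same 6 libraries. The 12 members with under 3000 bases of exon, Isg15 and Bst2 among them, had a median of −0.28 for this log2 fold change, whereas the other 25 had a median of 0.24. In A159V the rho was 0.13. For the genotype comparison under IgG the rho was 0.38, with a median of −0.38 for the 12 shorter members and −0.14 for the other 25. The 3 WT IgG libraries themselves differed in this way. Over the members, the deviation of a gene from its group mean had a rho with exon length of −0.84 in WT IgG replicate 1, 0.58 in replicate 2 and 0.79 in replicate 4, and over 14216 tested genes the values were −0.49, 0.16 and 0.48. The shortest members, Isg15 with 756 and Bst2 with 903 bases, were thus the highest in replicate 1 and the lowest in replicate 4. With the trend of each sample with exon length removed, the 9 members that were lower in A159V IgG than in WT IgG passed, together with Parp14. Of the higher members Ifi204 passed (0.66) and Rsad2 did not (0.38). Between WT anti-PD1 and WT IgG, 1 member, Lgals3bp, then passed as higher. The trend was fitted over all genes, whose rho values were smaller in size than those of the members. Part of the members' trend may therefore remain after its removal. Without WT IgG replicate 4, 7 members, all with under 3000 bases of exon apart from Xaf1, were lower in WT anti-PD1 than in WT IgG, namely Isg15, Ifit3, Bst2, Rtp4, Xaf1, Ifi27 and Ifi35. That fit keeps WT IgG replicate 1, in which short members were high, and the share of all genes that passed in it is not given here.

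**Figure D4:**
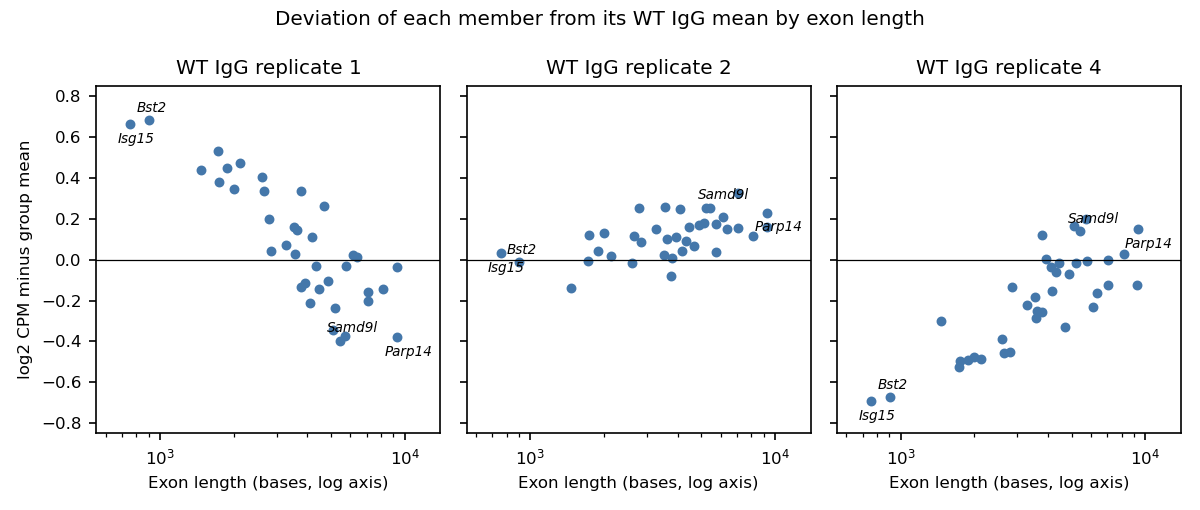
Deviation of each of the 37 members from its WT IgG mean (log2 CPM) against its exon length in bases on a log axis, with 1 panel per WT IgG replicate. The points fall with length in replicate 1 (rho −0.84) and rise with length in replicates 2 and 4 (rho 0.58 and 0.79).

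In A159V, none of the 37 members differed between anti-PD1 and IgG by edgeR, as was the case for 0% of all genes, and none reached an unadjusted p under 0.05, against 3.63% of all genes. DESeq2 called none either. The median log2 fold change was 0.14, and 31 of the 37 members were on the positive side, from 0.01 for Isg15 to 0.50 (SE 0.32) for Samd9l, the gene of an antiviral inhibitor of translation. The A159V IgG values of Samd9l were 160.1, 154 and 50.4 CPM and the A159V anti-PD1 values 173, 187 and 156 CPM, so replicate 5 of A159V IgG was the low one and the groups overlapped. That replicate was the lowest of its group for 18 of the 37 members and the highest for 10, and replicate 2 was the lowest for 17. The groups did not overlap for 4 members, Ifit3b, Zbp1, Xaf1 and Ifi27 (10.8%), against 11.0% of all genes. The responses in WT and in A159V, which share no samples, had a Pearson's r of −0.02 across the 37 members, and 18 members had the same sign in both.

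**Figure D5:**
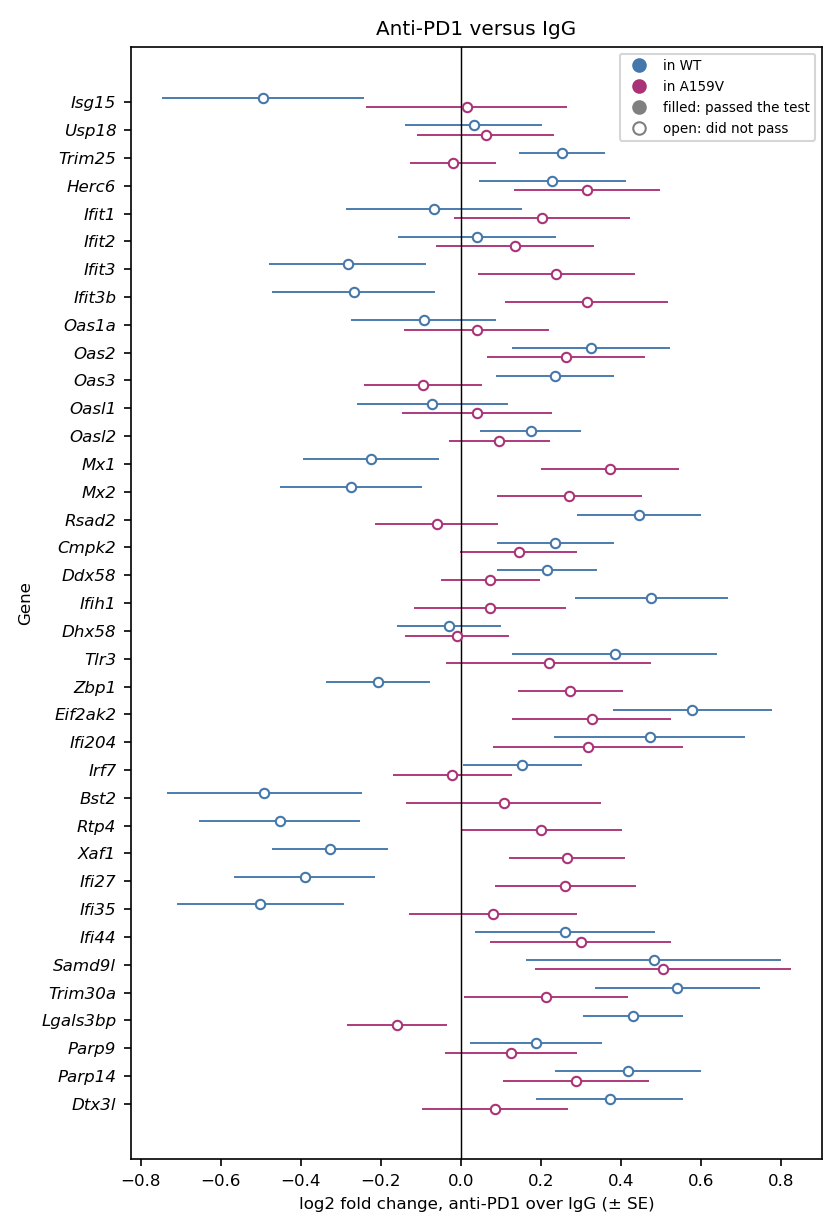
Log2 fold change (± SE) of each member between anti-PD1 and IgG in WT (blue) and in A159V (purple), where open points did not pass the test. No point is filled, the WT values lie on both sides of 0 with Ifi35 lowest at −0.50 and Eif2ak2 highest at 0.58, and 31 of the 37 A159V values lie right of 0.

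The members' spread between mice was measured in each group. Under IgG the median coefficient of variation of a member was 18.7% in WT and 14.7% in A159V, against 6.26% and 8.13% in the WT and A159V groups given anti-PD1, and over all tested genes it was 20.4%, 16.9%, 8.78% and 10.4% in this order. Thus the IgG groups spread more than the anti-PD1 groups for the members as for the other genes. The largest values were those of Bst2 in WT IgG and of Samd9l in A159V IgG (50.7%).

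The members were set beside other genes of the type I interferon pathway, a list of 57 ligands, receptors, kinases, factors and regulators, of which 53 were in the table and 35 could be tested. Under IgG, 10 of the 35 differed between the genotypes (28.6%, against 28.0% of all genes), 6 higher and 4 lower in A159V. Among the ligands, Ifnb1, the gene of interferon-β, was the highest in WT IgG replicate 1 at 2.24 CPM. It was otherwise between 0.213 and 0.856 CPM, a level of few counts, since 3 counts were worth 0.137 to 0.213 CPM. Its log2 fold change under IgG was −1.54 (SE 0.55, adjusted p = 0.0508), which did not pass. A value of this change without WT IgG replicate 1 is not given here. The receptor genes Ifnar1 and Ifnar2 had log2 fold changes of 0.24 (SE 0.16) and 0.30 (SE 0.13), which did not pass, and the kinase gene Jak1 was higher in A159V at 0.67 (SE 0.18, adjusted p = 0.0152). Of the transcription factor genes downstream of the receptor, Stat2 was lower in A159V and Irf9 did not pass. Stat2 was at 275, 352 and 314 CPM in WT IgG and at 175, 191 and 249.8 CPM in A159V IgG, without overlap, a log2 fold change of −0.61 (SE 0.16, adjusted p = 0.014). Irf9 had a log2 fold change of −0.24 (SE 0.11, adjusted p = 0.109).

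Upstream of the ligands, Mavs, the adaptor of the RIG-I-like receptors, was higher in A159V IgG at 80.5, 95.7 and 105 CPM against 35.0, 49.6 and 50.8 CPM in WT IgG (log2 fold change 1.05, SE 0.16, adjusted p = 0.000654). The DNA-sensing adaptor gene Tmem173, which encodes STING, was higher as well (0.74, SE 0.14, adjusted p = 0.00227), and so were Stat3, Ptpn11 and Ptpn6, from 0.55 to 0.84, of which Ptpn6 lost its call under 18 of 22 alternatives, DESeq2 and other scalings included, and Ptpn11 under 9. The lower genes besides Stat2 were Irf1, a factor induced by interferons (−0.78, SE 0.16, adjusted p = 0.00469), Socs1, an inhibitor of JAK kinases (−0.86, SE 0.22, adjusted p = 0.0144), and Trim56, a ligase that acts on nucleic acid sensing (−0.89, SE 0.21, adjusted p = 0.00735). Under anti-PD1, 4 of the 35 were lower in A159V, Socs1, Socs3, Trim56 and Irf8, and none was higher. This was 11.4%, against 10.2% of all genes that were lower and 21.4% called in either direction. Stat2 was at −0.40 under anti-PD1 (SE 0.16, adjusted p = 0.0865). In WT, Irf8, a factor of myeloid and lymphoid cells, was the 1 gene of the 35 that differed with anti-PD1 (2.86%, against 0.628% of all genes), at 1.85 (SE 0.32, adjusted p = 0.0301), in the same samples in which the leukocyte markers were high. In A159V none of the 35 differed.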

How the data were processed

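Bulk RNA-seq counts of tumor cells from 12 mice in 4 groups were used, with each sample's group taken from its label. The authors sequenced polyadenylated RNA with paired reads of 100 bp, aligned it to mm10 with STAR, counted reads per gene with summarizeOverlaps and deposited raw counts without normalization. The counting mode, strand setting and tool versions are not given in the sources used here, so genes that overlap or share sequence are uncertain.

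Counts were analyzed with edgeR 4.0.16 (limma 3.58.1, R 4.3.3). filterByExpr kept 14340 genes, libraries were scaled by TMM, and a quasi-likelihood model of the 4 groups (8 residual degrees of freedom) gave 5 contrasts with Benjamini-Hochberg adjustment over all genes tested. The standard error is the absolute log2 fold change divided by the square root of the F statistic. CPM in the text are TMM-scaled, and RPKM are CPM per kilobase of GENCODE M21 exons. No 2 samples of a group agreed within sampling noise. P-values rest on 1 estimate per gene of the spread between mice, taken over all 4 groups, and do not cover differences between clones. The tests were checked on simulated counts. Alternatives were DESeq2 1.42.0, other scalings, filters, thresholds and samples, a leukocyte score and a replicate block, and, chosen after seeing the data, removal of each sample's trend with exon length and the fit without 2 samples. Promoters came from RefSeq.

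The members and lists were chosen with earlier results of these data known. Values in every sample are given for members called in any contrast, the cytosolic RNA sensors, Isg15 and Irf7. Pathway genes named are those called, Ifnb1, the receptor genes, Stat2 and Irf9, and a further gene of this rule is not reported here. Bst2, Samd9l and the values of other members in single samples were named after their values were seen. Figures were drawn with matplotlib 3.10.9.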

Additional observations from a re-analysis of the deposited data

How the results depend on the processing

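Of the 11 members that differed between A159V IgG and WT IgG, Mx1 and Mx2 passed under all 22 alternatives computed for single genes. Xaf1 lost its call under 2 of the 22, Dhx58 and Ifi27 under 3, Ifi35 under 5, Ifit3b under 9, Ifit3 under 10, Rtp4 under 13 and Rsad2 and Ifi204 under 16 each, and none of these 11 changed sign. Their count was 2 with a log2 fold change limit of 1, 2 with a leukocyte marker score in the model, 2 in a fit of only the IgG groups (Mx1 and Mx2 in each case) and between 3 and 11 with 1 sample left out, lowest without A159V IgG replicate 2 (Mx1, Mx2 and Xaf1). It was 6 without WT IgG replicate 1, WT anti-PD1 replicate 1 or A159V anti-PD1 replicate 3, 7 without WT IgG replicate 2, and 12 (3 higher, 9 lower) without WT IgG replicate 1 and A159V IgG replicate 5, of which Oas2, Oasl2, Ifih1 and Parp14 are not among the 11. The split was 2 higher and 9 lower with TMM, 0 and 9 with RLE and 0 and 10 with upper-quartile scaling, and with these the median of all genes moved from 0.02 to −0.06 and −0.12 in log2. Between the genotypes under anti-PD1, the count of 4 members became 0 with a limit of 1, 0 with the leukocyte score, 12 in a fit of only the anti-PD1 groups, 11 without WT IgG replicate 1 and A159V IgG replicate 5, and 1 to 9 with 1 sample left out, where it was 1 without WT anti-PD1 replicate 3 or A159V anti-PD1 replicate 3, 2 without WT anti-PD1 replicate 2 or A159V anti-PD1 replicate 1 and 9 without A159V IgG replicate 5. Here Mx1 lost its call under 1 of 22 alternatives, the leukocyte score, Mx2 under 4, Dhx58 under 5 and Lgals3bp under 10, mostly with 1 sample left out. For anti-PD1 in WT, the count of 0 became 2 with DESeq2, 1 with the length trend removed and 0 to 7 with 1 sample left out, 7 without WT IgG replicate 4 and 1 without A159V IgG replicate 5. For the interaction it became 1 with DESeq2 and 0 to 4 with 1 sample left out, 4 without WT IgG replicate 4, and for anti-PD1 in A159V it was 0 under every alternative. Of the 35 other pathway genes, 10 differed under IgG, which became 1 with a limit of 1, 0 with the leukocyte score, 4 in a fit of only the IgG groups and 6 to 12 with 1 sample left out, lowest without A159V IgG replicate 1, and 14 without WT IgG replicate 1 and A159V IgG replicate 5. Socs1 under anti-PD1 changed sign with the leukocyte score, from −0.87 to 0.097. The causes of these changes were not tested.

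The replicate numbers belong to different mice. Of 13 same-numbered pairs of samples in different groups, 3 had a correlation of deviations over 0.1, with a range from −0.18 to 0.20, against −0.22 to 0.23 for the other pairs, so the numbers do not pair the samples. With the replicate number as a block, the counts of members were 17 and 8 for the genotypes under IgG and anti-PD1, 15 for anti-PD1 in WT and 10 for the interaction.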

Other observations

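The 14 guanylate-binding protein and immunity-related GTPase genes that could be tested, a family induced mainly by interferon-γ, were read beside the members. Under IgG, 8 of the 14 were lower in A159V and none was higher, with a median log2 fold change of −0.77. This was 57.1%, against 12.4% of all genes that were lower and 28.0% called in either direction. Gbp8 was at 8.14, 8.75 and 9.33 CPM in WT IgG and 1.06, 1.82 and 1.17 CPM in A159V IgG (log2 fold change −2.68, SE 0.27, adjusted p = 7.61e-05 by edgeR), without overlap, and Gbp4 had −2.14 (SE 0.21, adjusted p = 7.61e-05). Under anti-PD1, 3 of the 14 were lower in A159V, Gbp4, Gbp8 and Gbp9, and none was higher. This was 21.4%, against 10.2% of all genes that were lower and 21.4% called in either direction. In the anti-PD1 comparisons of WT and of A159V none of the 14 passed. In A159V all 14 were on the higher side with anti-PD1 (median log2 fold change 0.48). Of them 64.3% had an unadjusted p under 0.05, against 3.63% of all genes. The groups did not overlap for 50%, against 11.0% of all genes. All 14 were highest in A159V anti-PD1 replicate 1 within that group, as for Gbp2 at 334 CPM against 163 and 214 CPM. A159V IgG replicate 5 was low for Iigp1, at 36.6 CPM against 70.0 and 89.2 CPM. These genes come from the same mice and are not independent, and fits without single samples are not given here for them. Gbp4, Gbp8 and Gbp9 overlap in the annotation on chromosome 5, and Igtp overlaps Irgm2 on chromosome 11, so the counts of these genes are uncertain. Whether the family differed from the antiviral genes was not tested.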
